A study of Mus musculus with 6 samples.

Results

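The genes of excitation-contraction coupling and calcium handling were described in diaphragm muscle of mouse embryos at E14.75. The members were a written list of voltage sensor subunits, calcium release channels, store proteins, builders of the membrane junction, calcium pumps and their regulators, store-operated entry proteins and surface channels, and the rule that lists them uses no measured value. The list has 34 entries, of which 33 are gene symbols and 1, junctophilin, is the name of a family already present as Jph1 and Jph2. An Ensembl identifier with values in all 6 libraries was found for 32 members, of 23073 genes with a value, and Kcnj11 was not analysed here.

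The study asked which signals from muscle and from Schwann cells act on motor nerve terminals when Schwann cells are missing. RNA was sequenced from whole diaphragm of 2 erbB3 wild-type samples, numbered 5 and 6, and of 2 erbB3 mutant samples, numbered 1 and 2, which lack Schwann cells according to their labels. The remaining 2 samples, numbered 1 and 2, were Wnt1-Ribotag: in embryos with wild-type erbB3, Wnt1-Cre switched on a hemagglutinin-tagged Rpl22 ribosomal protein in cells of the neural crest lineage, and RNA bound to tagged ribosomes was immunoprecipitated from the diaphragms of a litter for each sample, in which genotyping later found some of the embryos to carry Cre. The strain and sex of the embryos are not given in the labels. All samples came from embryos, so the genotypes compared share the stage, the tissue and the oligo-dT selection. The Wnt1-Ribotag samples also differ in their alleles, their pooling, their immunoprecipitation and, according to the study, a much smaller input of RNA.

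Excitation-contraction coupling turns the electrical signal at the muscle surface into contraction. A voltage sensor in the transverse tubule, a fold of the surface membrane, opens ryanodine receptors in the adjoining sarcoplasmic reticulum, which then releases stored calcium to the contractile filaments, and calcium pumps of the SERCA family return it to the store. In embryonic muscle these junctions are still being assembled, and fetal or cardiac forms of several components are present beside the adult skeletal ones.

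Values were RPKM, reads scaled by the length of the gene and by the depth of the library. An RPKM is relative to the other reads of its library, and differences between replicate libraries still went with transcript length and GC content, as given below. Comparisons of levels between genes and between libraries are therefore approximate. The depth read from the smallest values in each library ranged from 100178863 to 230216660 mapped reads. Erbb3 itself did not tell the genotypes apart, with RPKM of 16.5 and 15.8 in wild-type and 21.5 and 11.9 in mutant libraries, and the genotypes are those of the labels. The Schwann cell marker Sox10 was lower in mutant than in wild-type muscle, with an adjusted p from limma of 0.0064. The summed RPKM of 10 liver markers, which include albumin, was 506 and 155 in wild-type, 17.9 and 10.3 in mutant and 274 and 198 in Wnt1-Ribotag libraries, and that of 10 neuron markers was 15.5 and 74.2, 9.60 and 13.6, and 122 and 541. Of 12 heart muscle markers, whose summed RPKM was 428 and 360 in wild-type, 641 and 603 in mutant and 372 and 397 in Wnt1-Ribotag libraries, 7 passed the filter on low values in the mutant vs. wild-type comparison and none of these was called in limma, with 2 of them at an unadjusted p under 0.05, Myl4 higher and Hand2 lower. In whole muscle Myl4 (291 to 578 RPKM) made up most of the summed RPKM of this list, so the sum mainly follows that gene. Of the other listed genes, Myl7 (8.05 to 18.1), Myh6 (11.0 to 21.8), Tnni3 (1.03 to 1.25) and Gata4, Tbx5 and Hand2 (2.41 to 30.7) were present. Nppa, Nppb, Nkx2-5, Bmp10 and Tbx20 were at most 0.643 RPKM. Whether the listed genes are particular to the heart in embryonic diaphragm was not tested. The part of heart tissue in the values below was not tested.

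Across the 6 libraries, the levels of the members ran from 366 RPKM down to the detection floor. The highest mean RPKM in the 4 whole-muscle libraries belonged to Sln (243), which encodes sarcolipin, a small membrane protein that inhibits SERCA pumps. It was followed by Fkbp1a (124), whose product FKBP12 binds the ryanodine receptor, Bin1 (110), which bends membrane into transverse tubules, Casq2 (98.7), the cardiac and fetal calsequestrin that binds calcium inside the store, and Hrc (82.2), a histidine-rich calcium-binding store protein. The filter, a mean RPKM not under 0.5 among the 4 libraries compared, kept 29 members in each of the 3 comparisons. The 3 members below it were Ryr2, the cardiac ryanodine receptor, Pln, which encodes phospholamban, the cardiac pump inhibitor, and Pvalb, the calcium buffer parvalbumin of fast adult fibres. Ryr2 had RPKM of 0.291 and 0.662 in wild-type, 0.227 and 0.213 in mutant, and 0.179 and 0.490 in Wnt1-Ribotag libraries. Pln did not exceed 0.0627 RPKM in any library. Pvalb had 0.274 and 0.178 RPKM in wild-type, 0.875 and 0.194 in mutant and 0.0102 and 0.0144 in Wnt1-Ribotag libraries, of which 1 value was the floor.

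**Figure D1:**
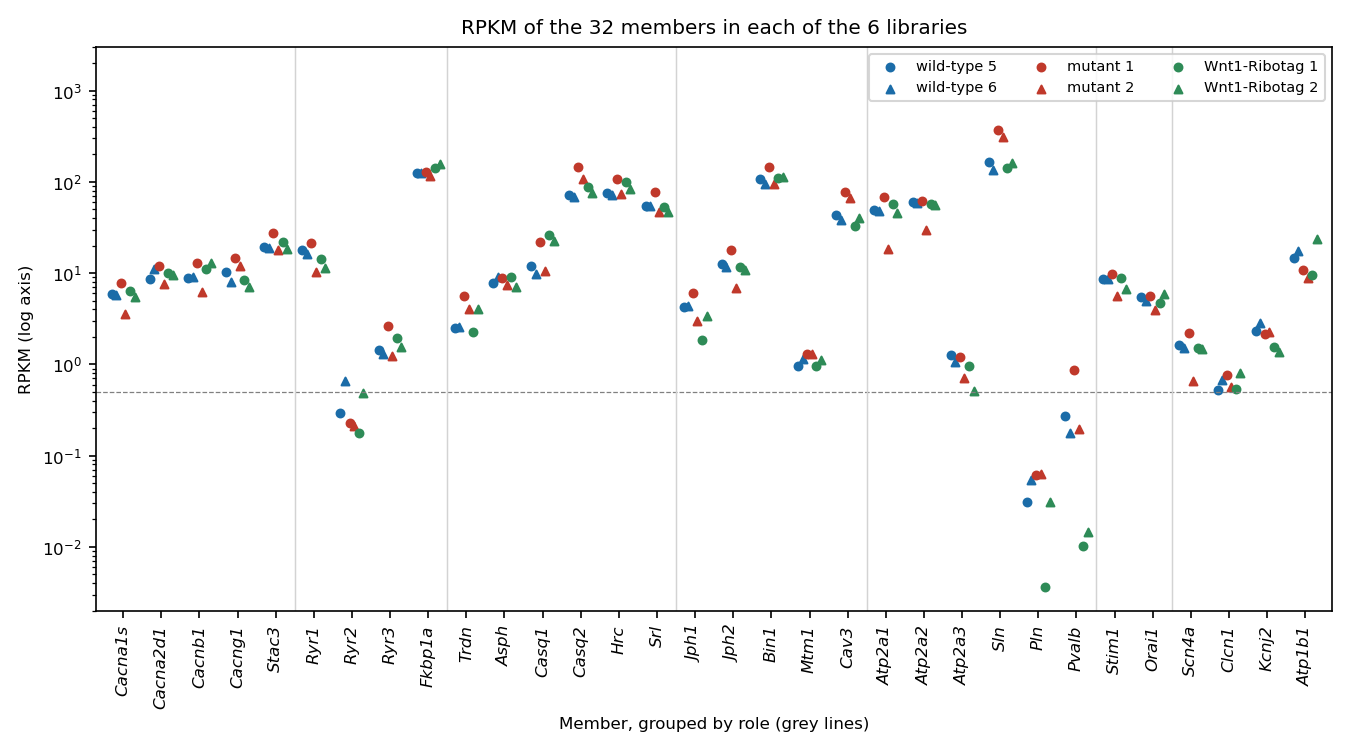
RPKM (log axis) of each of the 32 members in each library, with members ordered by role along the horizontal axis, and a dashed line at the filter of 0.5 RPKM. Sln, Fkbp1a, Bin1 and Casq2 had the highest levels, Ryr2, Pln and Pvalb lay below the filter on average, and mutant 2 (red triangles) lay below mutant 1 (red circles) for nearly all members tested.

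The sequence before the start site is shown for 3 members with an entry in RefSeq and with libraries of 2 groups that did not overlap, Casq2 and Cav3, which were higher in both mutant libraries, and Casq1, which was higher in both Wnt1-Ribotag libraries. Each is the 250 bases upstream of the RefSeq start on GRCm38.p6, printed in the direction of the gene, with capitals for the letters CANNTG, the E-box core bound by myogenic factors such as MyoD and myogenin. The window of Casq2 is chr3:102086165-102086414 on the plus strand, that of Casq1 is chr1:172219896-172220145 on the minus strand, and that of Cav3 is chr6:112459255-112459504 on the plus strand.
Casq2: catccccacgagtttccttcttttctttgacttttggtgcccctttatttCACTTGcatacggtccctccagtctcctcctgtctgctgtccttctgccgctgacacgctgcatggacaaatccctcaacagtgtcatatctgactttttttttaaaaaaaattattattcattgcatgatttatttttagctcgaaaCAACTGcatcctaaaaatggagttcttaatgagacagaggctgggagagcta
Casq1: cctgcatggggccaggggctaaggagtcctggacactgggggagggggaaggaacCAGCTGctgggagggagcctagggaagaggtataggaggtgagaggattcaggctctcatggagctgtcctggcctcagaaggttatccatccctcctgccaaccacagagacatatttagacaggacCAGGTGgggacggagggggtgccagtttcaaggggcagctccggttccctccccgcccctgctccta
Cav3: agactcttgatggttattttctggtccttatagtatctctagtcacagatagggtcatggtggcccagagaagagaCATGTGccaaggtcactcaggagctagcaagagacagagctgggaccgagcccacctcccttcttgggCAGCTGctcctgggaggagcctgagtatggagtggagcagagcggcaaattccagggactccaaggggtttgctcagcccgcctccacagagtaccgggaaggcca

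Each of the 3 windows held 2 matches to CANNTG. Of the 32 members, 22 had a RefSeq window, and 15 of these (68.2%) held CANNTG on either strand, against 66.0% of 27025 RefSeq promoters and 56.8% of the 10484 tested genes with a window. The palindrome CAGCTG, which is a case of CANNTG, was present in 9 of 22 member windows (40.9%), namely those of Cacna1s, Casq1, Fkbp1a, Jph2, Orai1, Cav3, Hrc, Atp2a1 and Kcnj2, against 12.8% of all promoters and 11.9% of tested genes. A MEF2 consensus was found in the windows of Casq2, Clcn1 and Pvalb, or 13.6% of members, against 3.01% of all promoters and 1.60% of tested genes, and TATAAA in 9.09% of members, against 13.0% of all promoters and 6.48% of tested genes. Motifs were searched on both strands, and these are matches of letters in a short window, with no measure of binding.

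The comparison of mutant with wild-type muscle asks how the transcripts of the coupling machinery differ in muscle without Schwann cells. None of the 29 members tested passed an adjusted p of 0.05 in limma on log2(RPKM + 0.5), where 0.171% of the 14052 genes tested were called. At an unadjusted p of 0.05 there were 5 members higher in the mutant, Sln, Casq2, Cav3, Trdn and Cacng1, and 1 lower, Atp1b1, in all 6 of 29 against 12% of all genes, with 2.38% of all genes higher and 9.66% lower. The median log2 fold change was -0.02 over the members and -0.10 over all genes tested. Both mutant libraries lay above both wild-type libraries for 6 members, which adds Mtm1 to those 5, against 12.7% of all genes. Both lay below for Kcnj2 and Atp1b1, against 37.4% of all genes. A difference of at least 1.5-fold in all 4 pairs of libraries, a count chosen after seeing the data, was found for Sln, Casq2, Cav3 and Trdn, against 0.505% of all genes, and for 0 members in the lower direction, against 1.74%. In whole-muscle RNA, a different share of muscle cells and a different amount of RNA per muscle cell cannot be told apart.

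**Figure D2:**
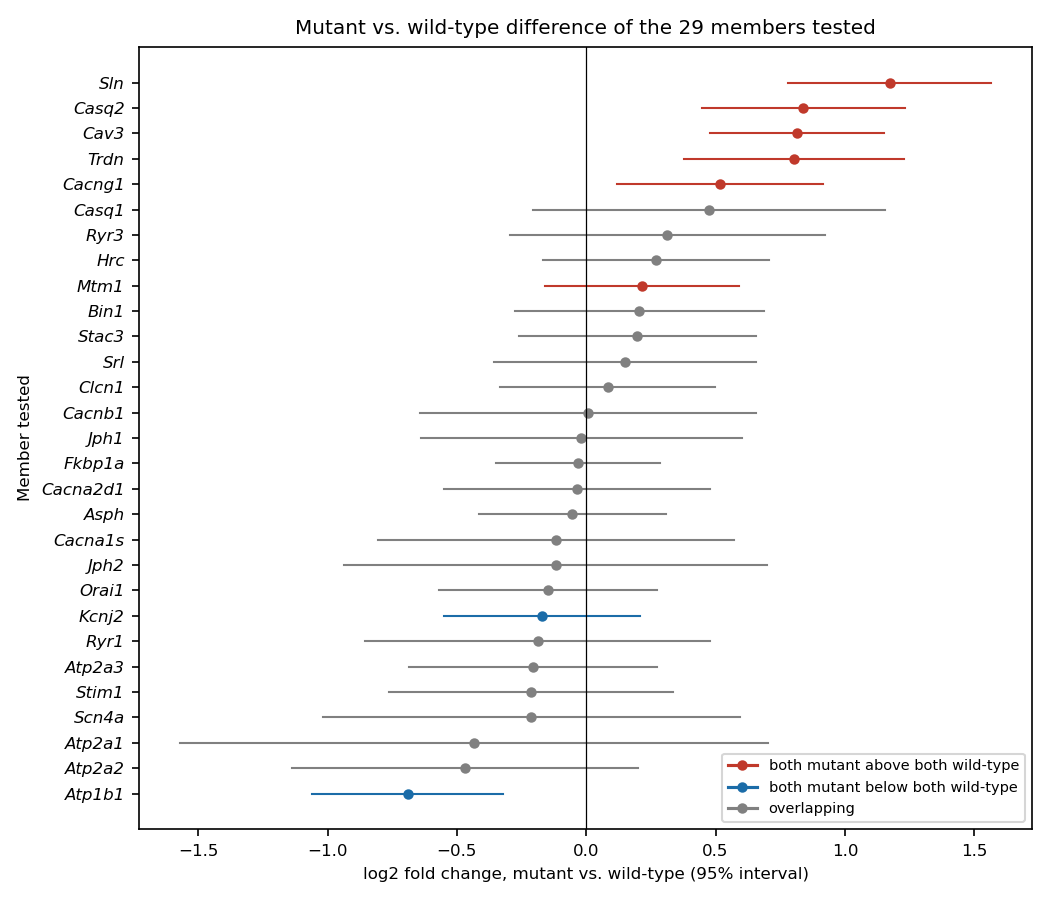
Log2 fold change of mutant vs. wild-type muscle with its 95% interval from limma for each of the 29 members tested, on the scale of log2(RPKM + 0.5), with colours for members whose 2 mutant libraries lay above (red) or below (blue) both wild-type libraries. Sln at 1.17 and Atp1b1 at -0.69 are the ends of the range, and most intervals cross 0.

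Among the voltage sensor and its partners, Cacng1 had the largest difference, and 4 of 5 members overlapped between the genotypes. Cacna1s encodes the pore and voltage sensor of the dihydropyridine receptor, and had RPKM of 5.89 and 5.75 in wild-type, 7.86 and 3.55 in mutant, and 6.31 and 5.46 in Wnt1-Ribotag libraries. Its mutant libraries fell on either side of the wild-type ones. The auxiliary subunit gene Cacna2d1 had 8.61 and 11.0 RPKM in wild-type, 11.9 and 7.55 in mutant and 10.1 and 9.59 in Wnt1-Ribotag libraries. Cacnb1, whose product places the channel in the tubule, had 8.85 and 8.96, 12.8 and 6.22, and 11.0 and 12.9 RPKM in the same order. For both of these subunits the mutant libraries again enclosed the wild-type values. Cacng1, the gamma subunit that damps the channel's current, had 10.3 and 8.05 RPKM in wild-type, 14.749 and 12.0 in mutant, and 8.34 and 7.04 in Wnt1-Ribotag libraries. The mutant libraries were above the other 4, with a log2 fold change against wild-type of 0.52 (SE 0.17, adjusted p = 0.369 from limma). Stac3, an adaptor needed for coupling of the sensor to the release channel, had 19.5 and 18.9 RPKM in wild-type, 27.5 and 17.8 in mutant and 21.7 and 18.2 in Wnt1-Ribotag libraries, and the groups overlapped.

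Ryr1 was the main release channel in every library. Ryr1, the skeletal ryanodine receptor, had 18.001 and 16.2 RPKM in wild-type, 21.4 and 10.3 in mutant and 14.2 and 11.4 in Wnt1-Ribotag libraries. Ryr3, the isoform that accompanies it in developing muscle and in the diaphragm, had 1.43 and 1.30 RPKM in wild-type, 2.60 and 1.23 in mutant and 1.95 and 1.56 in Wnt1-Ribotag libraries. Both receptors were high in mutant 1 and low in mutant 2, so that their mutant and wild-type values overlapped. Fkbp1a varied little, with 124 and 125 RPKM in wild-type, 128 and 116 in mutant and 143 and 159 in Wnt1-Ribotag libraries, and its log2 fold change in the mutant was -0.03 with a 95% interval from -0.35 to 0.29.

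The 6 store proteins had the highest median log2 fold change among the roles with at least 3 members, 0.37 in mutant vs. wild-type muscle, with 5 of 6 above 0. The store proteins had the highest of these medians also without any single library, but its size moved with mutant 1, since without it the median was -0.02 with 2 of 6 above 0, Casq2 and Trdn, and without mutant 2 it was 0.76 with 6 of 6 above 0. Casq2 (ENSMUSG00000027861) had 71.6 and 68.6 RPKM in wild-type, 146 and 108 in mutant and 86.8 and 75.8 in Wnt1-Ribotag libraries. Both mutant libraries were at least 1.51 times either wild-type library, a log2 difference of 0.84 (SE 0.17, adjusted p = 0.134 from limma). Trdn, which encodes triadin, the protein that tethers calsequestrin to the ryanodine receptor, had 2.51 and 2.55 RPKM in wild-type, 5.67 and 4.02 in mutant and 2.29 and 4.05 in Wnt1-Ribotag libraries. Its mutant libraries stood apart from wild-type, with a log2 difference of 0.80 (SE 0.18, adjusted p = 0.176 from limma), but mutant 2 was level with Wnt1-Ribotag 2. Casq1, the adult skeletal calsequestrin, had 12.0 and 9.84 RPKM in wild-type, 21.9 and 10.6 in mutant and 26.4 and 22.6 in Wnt1-Ribotag libraries. Mutant 2 lay between the wild-type libraries, and without mutant 1 the log2 fold change of Casq1 was -0.03 in place of 0.47.

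The other store proteins overlapped between the genotypes. Asph, whose products include junctin, a partner of triadin, had 7.78 and 9.14 RPKM in wild-type, 8.83 and 7.43 in mutant and 9.09 and 7.11 in Wnt1-Ribotag libraries. Hrc had 76.0 and 71.5 RPKM in wild-type, 108 and 73.7 in mutant and 99.9 and 82.6 in Wnt1-Ribotag libraries. Srl, which encodes the calcium-binding glycoprotein sarcalumenin, had 53.8 and 54.1, 76.6 and 46.7, and 53.3 and 46.9 RPKM in the same order. For Hrc and Srl, mutant 1 was the highest of the 6 libraries.

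Of the genes that build the triad and the transverse tubule, Cav3 and Mtm1 did not overlap between the genotypes. Cav3 (ENSMUSG00000062694), the muscle caveolin found in caveolae and forming tubules, had 43.5 and 38.3 RPKM in wild-type, 78.2 and 66.8 in mutant and 32.8 and 39.7 in Wnt1-Ribotag libraries. Both mutant libraries were above the other 4, and the log2 fold change against wild-type was 0.82 (SE 0.15, adjusted p = 0.105 from limma). Mtm1, the phosphoinositide phosphatase myotubularin, had 0.954 and 1.13 RPKM in wild-type, 1.30 and 1.28 in mutant and 0.964 and 1.11 in Wnt1-Ribotag libraries, and its log2 fold change of 0.22 had an interval from -0.16 to 0.59. The junctophilins, which hold the tubule against the sarcoplasmic reticulum, overlapped. Jph1 had 4.28 and 4.39 RPKM in wild-type, 6.01 and 2.997 in mutant and 1.84 and 3.36 in Wnt1-Ribotag libraries. Jph2 had 12.5 and 11.7, 17.7 and 6.90, and 11.5 and 10.8 RPKM in the same order, and Bin1 had 106 and 95.5, 144 and 93.5, and 109 and 112. In mutant muscle each of these 3 genes had 1 library above and 1 below both wild-type libraries.

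Among the pumps and their regulators, Sln had the largest log2 fold change of the members. The 3 SERCA pump genes had log2 fold changes below 0, and all 3 overlapped between the genotypes. Sln (ENSMUSG00000042045) had 164 and 135 RPKM in wild-type, 366 and 308 in mutant and 143 and 159 in Wnt1-Ribotag libraries. Both mutant libraries exceeded every other library by at least 1.88 times, the mean was 2.26 times that of wild-type muscle, and the log2 fold change was 1.17 (SE 0.17, 95% interval 0.78 to 1.57). Its adjusted p from limma was 0.0608. It passed the threshold, with an adjusted p of 0.0397 from limma, only when genes were required to reach a mean RPKM of 1. That fit called 35 of 12901 genes. Atp2a1, the SERCA pump of fast fibres, had 48.5 and 47.8 RPKM in wild-type, 68.8 and 18.2 in mutant and 57.6 and 45.3 in Wnt1-Ribotag libraries. Atp2a2, the pump of slow fibres and of the heart, had 60.2 and 58.8, 61.4 and 29.8, and 57.1 and 56.2 RPKM in the same order. Mutant 2 was below every other library for both pumps. Without mutant 1 their log2 fold changes were -1.38 and -0.98, whereas without mutant 2 they were 0.51 and 0.05. Atp2a3, a pump mainly of other cell types, was at 1.27 and 1.06 RPKM in wild-type, 1.21 and 0.711 in mutant and 0.952 and 0.510 in Wnt1-Ribotag libraries, with overlap between the genotypes.

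The pair of store-operated entry genes overlapped between the genotypes, and their median log2 fold change was -0.48 without mutant 1 and 0.12 without mutant 2. Stim1, the calcium sensor of the store membrane, had 8.66 and 8.69 RPKM in wild-type, 9.87 and 5.55 in mutant and 8.90 and 6.67 in Wnt1-Ribotag libraries. Orai1, the channel that it opens, had 5.52 and 5.0001, 5.55 and 3.96, and 4.70 and 5.85 RPKM in the same order. Mutant 2 was the lowest library for both genes, and mutant 1 the highest for Stim1.

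Among the genes of surface excitability, Atp1b1 and Kcnj2 were lower in both mutant libraries. Atp1b1, a beta subunit of the sodium pump that neurons and other tissues also express, had 14.6 and 17.6 RPKM in wild-type, 10.8 and 8.81 in mutant and 9.52 and 23.8 in Wnt1-Ribotag libraries. Its log2 fold change in the mutant was -0.69 (SE 0.16, adjusted p = 0.181 from limma), and within each group its higher library was that with the higher neuron marker sum except in the mutant, a relation whose part in the difference was not tested. Kcnj2, the inward rectifier that sets the resting potential, had 2.29 and 2.81 RPKM in wild-type, 2.12 and 2.28 in mutant and 1.53 and 1.35 in Wnt1-Ribotag libraries. The higher mutant value of Kcnj2 was 0.993 of the lower wild-type value, and its log2 fold change of -0.17 had an interval from -0.55 to 0.21. Scn4a, the sodium channel of the muscle action potential, had 1.62 and 1.498, 2.22 and 0.657, and 1.51 and 1.49 RPKM in the same order of groups. Clcn1, the chloride channel of mature fibres, had 0.527 and 0.677, 0.767 and 0.569, and 0.536 and 0.813 RPKM, close to the filter in every library.

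The mutant libraries differed from each other more than the wild-type ones. Mutant 2 was lower than mutant 1 for 28 of 29 members, by 0.61 on the log2 scale at the median and by over 1 for 7 of them, whereas it was lower for 60.4% of all genes, with a median of -0.07. The median absolute difference between replicates of the members was 0.09 in wild-type, 0.61 in mutant and 0.23 in Wnt1-Ribotag libraries. Atp2a1 was 3.77 times higher in mutant 1 than in mutant 2, Scn4a 3.38 times and Jph2 2.57 times, while Sln (1.19), Cav3 (1.17), Fkbp1a (1.105) and Mtm1 (1.01) were close to equal. The median difference of the members from the wild-type mean was 0.43 in mutant 1 and -0.17 in mutant 2, so a fit without mutant 2 gave a median log2 fold change of 0.43.

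Differences between replicate libraries went with transcript length and GC content in both genotypes. Across the 29 members, Spearman's rho between transcript length and the difference of mutant 2 from mutant 1 was -0.38, and across 13638 genes tested with an annotated length it was -0.30. The rho with GC content was -0.34 and -0.36. For the difference of wild-type 6 from wild-type 5 the rho with length was 0.42 across the members and 0.37 across all genes, and that with GC content -0.54 and -0.43. Genes within a pair of libraries are not independent, and the points share the depth and preparation of these libraries. The 15 members with transcripts of 1157 to 4111 bases had a median gap of -0.43, and the 14 members of 4211 to 15468 bases had a median gap of -0.81. Of the shorter members 11 had a log2 fold change above 0 in mutant vs. wild-type muscle, and of the longer ones 3 did. After each library was adjusted for a smooth trend on length and GC content, an alternative chosen after seeing the data, the log2 fold changes were 0.98 for Sln, 0.79 for Cav3, 0.75 for Casq2, 0.61 for Trdn, 0.49 for Cacng1 and -0.72 for Atp1b1, with adjusted p from limma between 0.186 and 0.429.

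**Figure D3:**
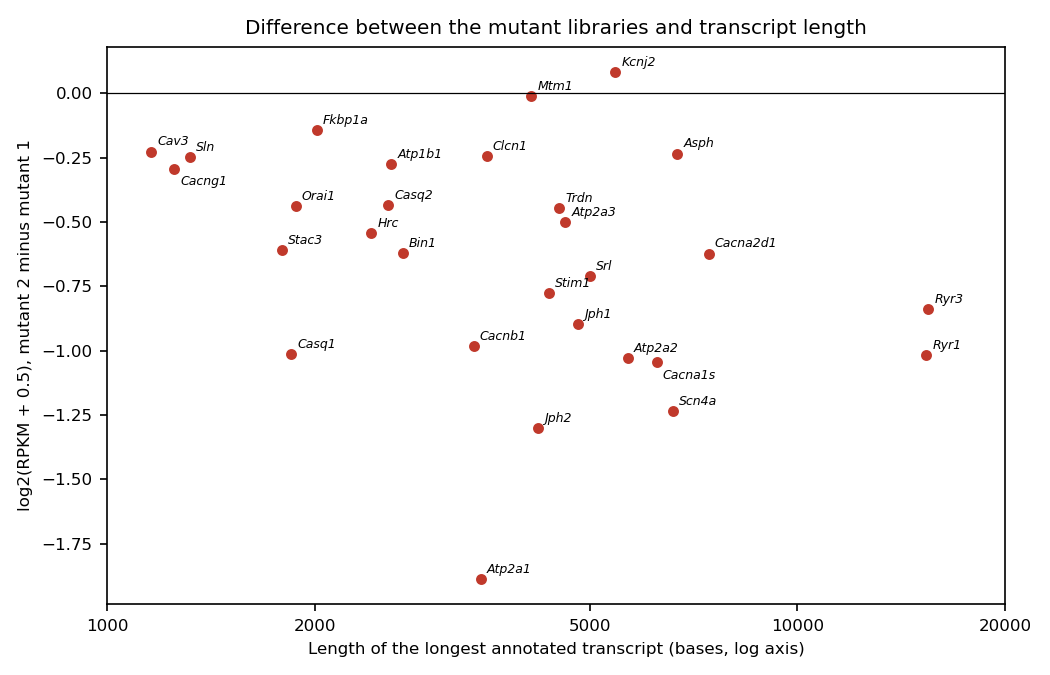
Difference of log2(RPKM + 0.5) between mutant 2 and mutant 1 for each of the 29 members tested, against the length of its longest annotated transcript in bases (log axis), with a line at 0. Kcnj2 lies above 0 and the other members below it, from Mtm1 near 0 to Atp2a1 at -1.89.

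The markers of skeletal muscle fibres were also highest in mutant 1. The summed RPKM of 26 such markers, among them actins, myosins and troponins, was 5528 and 4625 in wild-type, 9244 and 6422 in mutant and 5230 and 4838 in Wnt1-Ribotag libraries. Against the wild-type mean, the median over these markers was 0.81 in mutant 1 and -0.05 in mutant 2 on the log2 scale. None of the 26 was called in mutant vs. wild-type muscle in limma, 8 were higher at an unadjusted p of 0.05, against 2.38% of all genes, and 11 did not overlap, all higher, against 12.7%. After each library was centred on these markers, the log2 fold change was smaller for the higher members, at 0.86 for Sln, 0.52 for Casq2, 0.50 for Cav3, 0.48 for Trdn and 0.20 for Cacng1, and further below 0 for Atp1b1, at -1.01, with adjusted p from limma of 0.806 or above. In the 14 alternatives that were run, 6 of the 29 members had the same sign throughout, namely these 6. Of 10 connective tissue and tendon markers, 2 tendon-related genes were called higher in the mutant, Tnmd at 1.55 (adjusted p = 0.0082 from limma) and Kera at 1.52 (adjusted p = 0.0107 from limma), while the median over that list was 0.06 in mutant 1 and 0.20 in mutant 2 against the wild-type mean. The part of fibre and tendon content in the differences of the members was not tested.

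**Figure D4:**
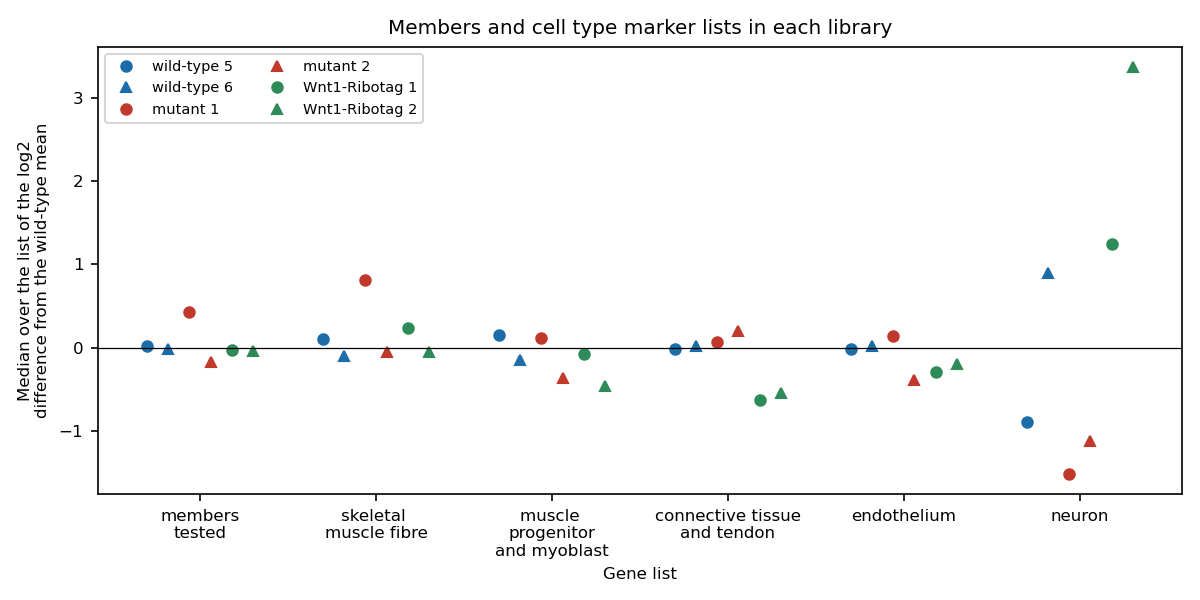
Median over the 29 members tested and over 5 lists of cell type markers of the log2 difference from the wild-type mean, with 1 point for each library. The members and the skeletal muscle fibre markers are highest in mutant 1 and lie near 0 in mutant 2 and in the Wnt1-Ribotag libraries, in which the neuron markers are highest.

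Ratios of related members within a library do not depend on how that library was scaled. The ratio of Ryr1 to Ryr3 in RPKM was 12.6 and 12.4 in wild-type, 8.25 and 8.39 in mutant and 7.30 and 7.32 in Wnt1-Ribotag libraries. Replicates were close, the mutant ratios lay below the wild-type ones and above the Wnt1-Ribotag ones, and the log2 ratio was lower by 0.59 in mutant muscle, with a two-sided exact permutation p of 0.333, the smallest that 2 against 2 libraries allow, and 1 after adjustment over the 5 ratios tested. The transcripts are of like length, 15358 bases for Ryr1 and 15468 for Ryr3, but differ in GC content, 58.0% against 49.0%, and after the adjustment for length and GC content the log2 fold change of Ryr1 minus that of Ryr3 was -0.34 in place of -0.50 on the log2(RPKM + 0.5) scale.

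The other ratios overlapped between the genotypes. Casq1 to Casq2 was 0.168 and 0.143 in wild-type, 0.150 and 0.0982 in mutant and 0.304 and 0.298 in Wnt1-Ribotag libraries, so that the cardiac and fetal form exceeded the adult skeletal form in every library. Atp2a1 to Atp2a2 was 0.806 and 0.813 in wild-type, 1.12 and 0.611 in mutant and 1.01 and 0.806 in Wnt1-Ribotag libraries. Jph1 to Jph2 was 0.342 and 0.374, 0.339 and 0.434, and 0.160 and 0.310 in the same order. The exact permutation p was between 0.667 and 1 for these ratios and for Sln to Pln, whose denominator was too close to the floor for the ratio to be read.

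**Figure D5:**
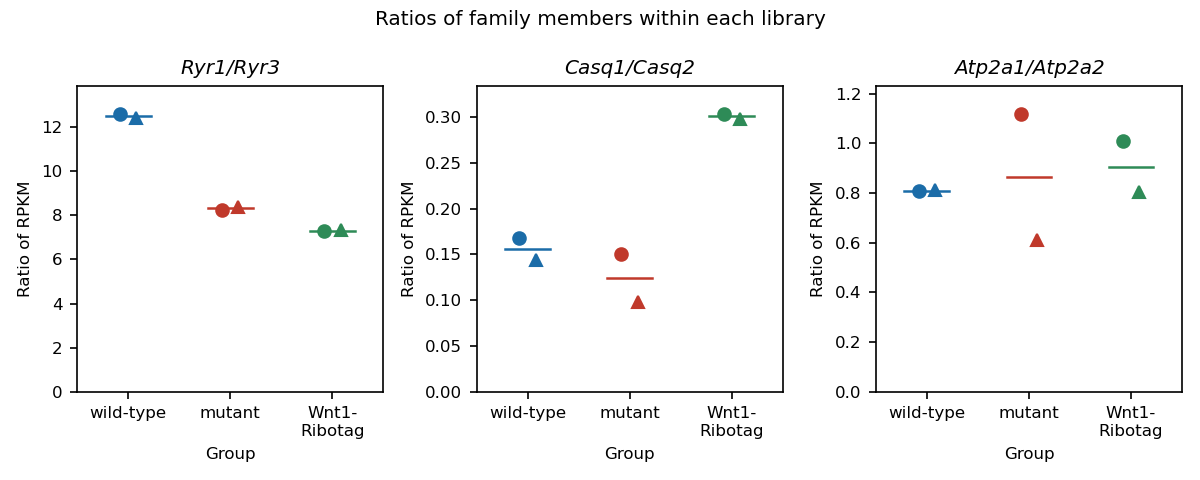
Ratio of the RPKM of related members in each library (points) with the mean of each group (lines), on axes that start at 0. The ratio of Ryr1 to Ryr3 separates the 3 groups, from 12.6 in wild-type 5 to 7.30 in Wnt1-Ribotag 1, that of Casq1 to Casq2 is highest in the Wnt1-Ribotag libraries, and that of Atp2a1 to Atp2a2 is spread most in the mutant.

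The Wnt1-Ribotag libraries hold RNA from an immunoprecipitation aimed at the neural crest lineage, and the relative levels of the coupling transcripts in them are set beside those of whole muscle. Against wild-type muscle the median log2 fold change was -0.003 over 29 members and -0.05 over 14418 genes, while the 10 Schwann cell lineage markers had a median of 2.69. The members went both ways, 14 above and 15 below 0, from -0.69 for Jph1 to 1.13 for Casq1. None of the members was called in limma, where 0.00694% of all genes were called. At an unadjusted p of 0.05, which 19.5% of all genes met, there was 1 member higher, Casq1 (8.19% of all genes), and 1 lower, Kcnj2 (11.3%). Casq1 had a log2 difference of 1.13 from wild-type (SE 0.19, adjusted p = 0.152 from limma) and exceeded it by 1.5 times or more in each of the 4 pairs, as 5.37% of all genes did, and 0 members were lower by as much, against 5.52% of all genes. Kcnj2 had -0.65 (SE 0.25, adjusted p = 0.249 from limma). In all, 7 members did not overlap in the higher direction, against 23.3% of all genes, and 7 in the lower, against 31% of all genes. With Wnt1-Ribotag 2 as the lone tagged library 7 members were called and with Wnt1-Ribotag 1 alone 4, Casq1 and Atp1b1 in both cases, Atp1b1 with opposite signs, in fits that called 4404 and 5857 genes.

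Against mutant muscle, Sln and Cav3 had the largest differences, both lower in the Wnt1-Ribotag libraries. This comparison shares the mutant libraries with the first and the Wnt1-Ribotag libraries with the second. None of the members was called in limma, where 1.19% of 14325 genes were called, and 4 had an unadjusted p under 0.05, against 19.3% of all genes, all of them lower, Sln, Cav3, Casq2 and Cacng1, against 7.46% of all genes. The log2 difference from mutant muscle was -1.15 for Sln (SE 0.23, adjusted p = 0.0793 from limma) and -0.99 for Cav3 (SE 0.23, adjusted p = 0.109 from limma). These 2 members were lower by 1.5 times or more in each of the 4 pairs, against 4.09% of all genes, and 0 were higher by as much, against 8.52%. Sln and Cav3 were called in a fit of all 6 libraries, which called 692 genes, and without Wnt1-Ribotag 1 or without Wnt1-Ribotag 2, which left a lone tagged library and called 2555 and 3844 genes. There were 6 members without overlap in the lower direction, against 24.4% of all genes, and 2 in the higher, Fkbp1a and Casq1, against 29.7%. Of the 26 skeletal muscle fibre markers 1, Mylpf, was called lower in this comparison (-1.46, adjusted p = 0.0496 from limma), 7 were lower and 0 higher at an unadjusted p of 0.05, and 11 did not overlap in the lower direction and 1 in the higher, and their part in the differences of Sln and Cav3 was not tested.

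The remaining genes of the pathway were taken from a list of 78 that do not include the members, of which 75 had a row and 65 were tested in mutant vs. wild-type muscle. None was called in limma, and at an unadjusted p of 0.05 there were 5 higher, against 2.38% of all genes, and 12 lower, against 9.66%. Their median log2 fold change was -0.19, and -0.10 over all genes. Without overlap there were 7 higher, against 12.7% of all genes, and 27 lower, against 37.4%. In each of the 4 pairs, Cavin4 and Mrln were higher by 1.5 times or more, as 0.505% of all genes were, and Cavin4 is named here after its values were seen. Mrln, which encodes myoregulin, an inhibitor of SERCA pumps like sarcolipin, had 33.8 and 28.8 RPKM in wild-type, 57.6 and 54.0 in mutant and 25.1 and 29.2 in Wnt1-Ribotag libraries. Its mutant libraries were above the other 4, and the log2 difference from wild-type was 0.83 (SE 0.14, adjusted p = 0.0912 from limma). Cavin4, the muscle partner of caveolin-3 in caveolae, had 12.4 and 11.5 RPKM in wild-type, 33.0 and 18.7 in mutant and 17.0 and 19.0 in Wnt1-Ribotag libraries, with a log2 fold change in the mutant of 1.03 (SE 0.24, adjusted p = 0.184 from limma).

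Apart from Mrln, the genes of highest mean RPKM in each role of that list that are reported here differed by less. The beta subunit Cacnb3 was at 24.9 and 26.4 RPKM in wild-type and 21.0 and 18.8 in mutant libraries, and Cacng7 at 16.0 and 13.7 against 11.1 and 10.3. Both were lower in the mutant without overlap, with log2 fold changes of -0.36 and -0.45 and adjusted p from limma of 0.385 and 0.343. Of the calmodulin genes, whose product regulates the release channel, Calm2 was at 267 and 280 RPKM in wild-type and 305 and 357 in mutant libraries, and Calm3 at 136 and 122 against 126 and 116. The log2 fold change in the mutant was 0.27 for Calm2, with both mutant libraries higher, and -0.09 for Calm3, with overlap. It was -0.31 for Calr and -0.13 for Canx, calcium-binding chaperones of the store, -0.04 for the caveolar coat gene Cavin1 and -0.26 for Ehd1, which takes part in membrane recycling. For Micu2, a regulator of mitochondrial calcium uptake, it was 0.17, for Orai3 -0.18 and for Stim2 -0.12, and for the sodium pump subunit Atp1b3 it was -0.04. For the genes from Calm2 to Atp1b3 the adjusted p from limma was between 0.472 and 0.923.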

How the data were processed

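The 6 RNA-Seq libraries of E14.75 mouse diaphragm were grouped by their labels into wild-type, mutant and Wnt1-Ribotag, 2 in each. The deposited values are RPKM, read numbers the authors divided by the length of the gene and the library's depth, and a second column marks with 1 any value that is a floor standing in place of 0. The submitters' processing notes name STAR and the build mm9, and the program behind the RPKM is not given in the sources used here. Read counts were not used, and counting error cannot be computed. Each file has 23076 entries, 3 without a value. Identifiers were joined to symbols, transcript lengths and GC content with GENCODE M21 on GRCm38, and 21583 matched and 1490 did not. No file coordinates were converted, and coordinates printed are those of RefSeq promoter windows on GRCm38.p6. Depth was read from floor values of microRNA genes, taken as 1 read divided by the annotated length plus 2 bases.

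RPKM were transformed to log2(RPKM + 0.5), and fold changes on this scale understate those of low genes. For each comparison, genes averaging 0.5 RPKM or more in its 4 libraries entered lmFit and eBayes with a trend in limma 3.58.1 under R 4.3.3, without a block, with Benjamini-Hochberg adjustment over all genes tested and a threshold of 0.05. Ratios of related members were compared by two-sided exact permutation tests. The series describes the replicates as biological, and no litter or animal is named for whole muscle. Tables and figures were made with matplotlib 3.10.9, scipy 1.17.1, pandas 2.3.3 and numpy 2.4.6 under Python 3.11.15. The members and the pathway and marker lists were chosen with earlier results of these data known. Values in each library are given for all members tested, and of the pathway list genes past the threshold and the 2 of highest mean RPKM in each role were to be named, of which 1 is not reported here. Genes named after their values were seen are said to be so. Where leaving out a library left a group with 1, that library was assumed to vary like the other group. On simulated data of 14038 genes for mutant vs. wild-type muscle, limma recovered 100% of genes changed 4-fold and 94.7% of those changed 2-fold, and genes simulated without a change made up 6.53% of the calls. In the simulated Wnt1-Ribotag comparisons, 89.9% of 4-fold and 25.5% of 2-fold changes were recovered against wild-type, and 87.6% and 17.3% against mutant muscle. The simulated noise was independent for each gene and library, with a spread averaged over genes of like level. It held no shift shared by the genes of a library, so these rates need not hold for the real values. In mutant vs. wild-type muscle Sln, at a log2 fold change of 1.17, was not called. Alternatives tried were median-ratio scaling, quantile normalization, centring on skeletal muscle fibre markers, other pseudocounts (0.1 and 1), other filters (none, and a mean of 1 RPKM), eBayes without trend, a joint fit of all 6 libraries, a replicate block, leaving out each library in turn and, added after seeing the data, an adjustment for transcript length and GC content.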

Additional observations from a re-analysis of the deposited data

How the results depend on the processing

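In mutant vs. wild-type muscle, 0 of 29 members were called in 12 of 14 alternatives. With the filter raised to a mean of 1 RPKM the count was 1, Sln, in a fit that called 35 of 12901 genes. The other exception was the fit without mutant 1, in which the lone mutant library gives no spread of its own. Over the fits that left out a library, the median log2 fold change of the members ranged from -0.17 to 0.43. That median was -0.34 when centred on muscle markers, 0.084 with median-ratio scaling, 0.12 with quantile normalization and 0.11 when adjusted for length and GC content. Centring on skeletal muscle fibre markers gave Mtm1 -0.10 and Ryr3 -0.0041, quantile normalization gave Cacna1s 0.021, and the adjustment for length and GC content gave Ryr1 0.18 and Cacna1s 0.091, each against the sign in the report. Leaving out a library turned the sign of several members, among them Casq1 (-0.033 to 0.98), Ryr3 (-0.11 to 0.73), Ryr1 (-0.70 to 0.32), Atp2a1 (-1.38 to 0.51), Atp2a2 (-0.98 to 0.047) and Cacna1s (-0.64 to 0.40). Without mutant 1, 1 of 5 voltage sensor members and 2 of 5 triad and tubule members were above 0, and without mutant 2 all 5 of each were. The log2 ratios of Atp2a1 to Atp2a2 (-0.41 to 0.47) and Jph1 to Jph2 (-0.078 to 0.28) also turned. Median-ratio scaling moved the median of all genes from -0.10 to -0.001.

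In Wnt1-Ribotag vs. wild-type muscle the members' median was -0.024 with no filter, 0.065 with median-ratio scaling, -0.10 when centred on muscle markers and -0.057 when adjusted for length and GC content, with -0.041 to 0.025 and 0 to 7 members called when a library was left out. In Wnt1-Ribotag vs. mutant muscle, 2 members were called with all 6 libraries in the fit, and leaving out a library gave 0 to 4 called and a median of -0.43 to 0.29. The replicate block also called 2, Sln (adjusted p = 0.00609 from limma) and Cav3 (0.0369), and 842 genes in place of 171. Nothing in the labels ties the numbers 1 and 2 across these groups, the correlation of deviations between libraries of the same number was 0.17, and with 2 numbers they were not taken to pair the libraries. The cause of these changes was not tested.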

Other observations

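The other pathway genes in the Wnt1-Ribotag libraries were looked at after their values were seen, and none passed an adjusted p of 0.05 in limma. Against wild-type muscle, 12 of 68 genes tested were higher at an unadjusted p of 0.05, against 8.19% of all genes, and 6 lower, against 11.3%. The neuron markers were higher in the same libraries, with a median log2 fold change of 2.39 over 9 tested, and their part in these values was not tested. Camk2b, a subunit of calmodulin-dependent kinase, had RPKM of 6.24 and 7.40 in Wnt1-Ribotag, 1.98 and 2.00 in wild-type and 2.76 and 1.22 in mutant libraries, with a log2 fold change against wild-type of 1.55 (SE 0.20, adjusted p = 0.134 from limma). Stac, the neuronal relative of Stac3, had 2.68 and 3.58 RPKM in Wnt1-Ribotag, 0.786 and 0.831 in wild-type and 0.530 and 0.475 in mutant libraries, and its adjusted p from limma was 0.159 against wild-type and 0.0583 against mutant muscle. Jph3, the junctophilin of neurons, had 0.625 and 2.60 RPKM in Wnt1-Ribotag libraries and at most 0.425 in whole muscle. S100a1, a calcium-binding protein of striated muscle, lay in the other direction, with 3.86 and 5.57 RPKM in Wnt1-Ribotag and 9.46 and 6.59 in wild-type libraries.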
